A study of Mus musculus with 18 samples.

Results

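Cytochromes P450 of families 1 to 3 are the liver enzymes that oxidise drugs, pollutants, steroids and fatty acids. Here they were taken as every gene whose symbol is Cyp followed by family 1, 2 or 3, a subfamily letter and a number, without pseudogenes. That rule used names and no measured value. It gave 58 of the 50600 genes listed 1 day after operation and 52 of the 17127 genes listed at 12 hours, and all 52 were among the 58, counting Cyp2c44 (1 day) and Cyp2c23 (12 hours) as the same gene. Of these, 42 of 58 had enough reads to be tested at 1 day and 37 of 52 at 12 hours, with 36 tested at both times.

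RNA from 18 mouse livers, 3 in each group, had been sequenced after myocardial infarction (MI, made by tying off the left anterior descending artery of the heart for good) or a sham operation (the same surgery without ligation). At 1 day the groups were HMRKO + MI, HMRKO + sham, LC + MI and LC + sham. HMRKO mice carry mineralocorticoid receptor (MR, gene Nr3c2) alleles flanked by loxP sites together with Cre recombinase driven by the albumin promoter, which is active in hepatocytes. LC mice are littermate controls with the same floxed alleles and no Cre, and the labels call them wild type. At 12 hours the groups were C57 + MI and C57 + sham, from mice without either modification. All labels give the strain as C57BL/6 and an age of 12 weeks, and the study used male mice. The labels of the 1 day MI livers do not name the operation and none gives a time, so both were taken from the study design. The hour of the day at collection was not given. No label says whether livers were handled in batches, and each p below measures only the spread between these livers.

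A P450 holds a haem group, sits in the endoplasmic reticulum membrane, and receives its electrons from P450 oxidoreductase (Por), in some reactions with the help of cytochrome b5. Transcription of family 1 is driven by the aryl hydrocarbon receptor (Ahr), of Cyp2b genes by the constitutive androstane receptor (CAR, gene Nr1i3) and of Cyp3a genes by the pregnane X receptor (PXR, gene Nr1i2), while several Cyp2c and Cyp2d genes also depend on sex-specific growth hormone pulses. Most of the mouse genes lie in clusters of close copies, and the liver expresses many of them most strongly around the central vein.

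The total count per liver was 19098704 to 28945526 at 1 day. Libraries at 12 hours held 16745688 to 19190438 counts in C57 + MI livers but only 1361564 to 2255837 in C57 + sham livers, so the C57 + sham libraries were much shallower and stand apart. The 10 hepatocyte marker genes were expressed in every liver, with a summed level of 68340 to 74412 CPM in HMRKO + MI, 47389 to 63385 CPM in HMRKO + sham, 62667 to 69732 CPM in LC + MI and 67089 to 73779 CPM in LC + sham livers. Mitochondrial transcripts took 18.9% of the counts in LC + MI replicate 1, the highest share of all, against 7.53% to 15.6% in the other 1 day livers. CPM here is the usual unit of counts relative to library size, after trimmed-mean (TMM) scaling, fold changes are log2 values from edgeR's quasi-likelihood model, SE is their standard error, and each adjusted p is a Benjamini-Hochberg value taken across every gene in the fit. A gene passed when it was under 0.05. In bulk liver, fewer cells of a type and less RNA per cell cannot be told apart.

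The targeted gene was checked first. Nr3c2 had 0.895, 1.1 and 0.913 CPM in HMRKO + MI livers and 2.93, 3.76 and 2.55 CPM in HMRKO + sham livers, and 3.56, 2.13 and 1.9 CPM in LC + MI livers against 5.6, 6.7 and 4.71 CPM in LC + sham livers. It was lower in every HMRKO + MI liver than in any LC + MI liver (log2 fold change -1.36, SE 0.29, adjusted p = 0.00505) and lower in every HMRKO + sham liver than in any LC + sham liver, although the sham difference did not pass (log2 fold change -0.88, SE 0.25, adjusted p = 0.471). The counts do not separate the deleted exons from the rest of the gene, so its level is not a measure of functional receptor. Nr3c2 was also lower in LC + MI than in LC + sham livers (log2 fold change -1.18, SE 0.26, adjusted p = 0.0238). This call was lost without LC + sham replicate 2, without LC + MI replicate 2 or without LC + MI replicate 3, or in a fit of only the groups compared (adjusted p of up to 0.105).

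The 58 genes map to 8 chromosomes, most of them as tandem copies: 15 on chromosome 19 (all of them Cyp2c), 15 on chromosome 7 (among them Cyp2a, Cyp2b, Cyp2e1 and Cyp2f2), 8 on chromosome 4 (all Cyp2j), 8 on chromosome 5 (all Cyp3a genes and Cyp2w1), 8 on chromosome 15 (all Cyp2d), 2 on chromosome 9 (Cyp1a) and 1 each on chromosomes 3 (Cyp2u1) and 17 (Cyp1b1). For 15 of the 58 the coding sequence was at least 95% identical to that of another member, so that reads could have been split between copies by the authors' counting. Cyp2a4 and Cyp2a5 were 98.4% identical, Cyp2c67 and Cyp2c40 97.7%, Cyp2c68 and Cyp2c40 98.1%, Cyp2c54 and Cyp2c50 95.2%, and Cyp2a12 and Cyp2a22 97%. Values of these genes carry that uncertainty.

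To show how alike the control regions of such neighbours are, 3 pairs that the results below turn on are printed. They are Cyp2a5 and Cyp2a4, which both fell in HMRKO livers after MI, Cyp2c67 and Cyp2c68, which fell in the same comparisons, and Cyp2j5 and Cyp2j8, which moved in opposite directions. Cyp2a5 and Cyp2a4 also had log2 fold changes below 0 after MI in LC livers. Cyp2j8 rests on few reads and could be tested only through the HMRKO + MI livers. Each window holds 250 bases before and 50 bases from the transcription start, taken from RefSeq on GRCm38.p6 (the authors' notes name mm9, so these positions are not those of the deposited data). The windows lie at chr7:26835089-26835388 and chr7:26306942-26307241 (plus strand), and at chr19:39648993-39649292, chr19:39741052-39741351, chr4:96664070-96664369 and chr4:96507348-96507647 (minus strand). Capitals mark TTGCNNAA on either strand, a core recognised by the C/EBP factors of the liver.
Cyp2a5: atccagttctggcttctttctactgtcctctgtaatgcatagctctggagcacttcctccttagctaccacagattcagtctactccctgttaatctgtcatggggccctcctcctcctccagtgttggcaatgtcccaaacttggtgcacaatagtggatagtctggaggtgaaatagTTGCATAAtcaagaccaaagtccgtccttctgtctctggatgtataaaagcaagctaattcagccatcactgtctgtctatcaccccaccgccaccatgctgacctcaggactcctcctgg
Cyp2a4: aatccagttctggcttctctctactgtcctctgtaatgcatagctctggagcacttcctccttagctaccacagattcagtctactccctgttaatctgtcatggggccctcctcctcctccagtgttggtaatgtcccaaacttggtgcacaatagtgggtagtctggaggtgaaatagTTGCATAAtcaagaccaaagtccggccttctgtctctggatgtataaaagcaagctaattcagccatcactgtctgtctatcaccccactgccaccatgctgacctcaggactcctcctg
Cyp2c67: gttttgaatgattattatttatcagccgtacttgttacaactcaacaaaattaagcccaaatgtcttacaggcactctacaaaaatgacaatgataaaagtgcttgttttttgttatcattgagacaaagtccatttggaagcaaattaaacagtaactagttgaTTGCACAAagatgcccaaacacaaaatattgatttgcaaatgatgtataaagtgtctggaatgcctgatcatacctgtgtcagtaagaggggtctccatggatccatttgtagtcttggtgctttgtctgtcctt
Cyp2c68: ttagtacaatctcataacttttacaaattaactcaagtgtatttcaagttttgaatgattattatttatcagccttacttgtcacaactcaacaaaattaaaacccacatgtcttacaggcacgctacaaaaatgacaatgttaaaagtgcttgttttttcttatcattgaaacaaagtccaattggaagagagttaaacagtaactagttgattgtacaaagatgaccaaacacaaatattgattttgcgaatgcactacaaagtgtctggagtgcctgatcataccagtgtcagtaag
Cyp2j5: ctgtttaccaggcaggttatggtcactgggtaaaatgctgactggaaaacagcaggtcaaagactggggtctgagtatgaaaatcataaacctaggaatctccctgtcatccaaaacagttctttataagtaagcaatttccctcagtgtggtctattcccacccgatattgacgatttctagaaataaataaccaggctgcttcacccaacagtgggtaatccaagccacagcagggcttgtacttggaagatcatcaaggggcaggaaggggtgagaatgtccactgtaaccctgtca
Cyp2j8: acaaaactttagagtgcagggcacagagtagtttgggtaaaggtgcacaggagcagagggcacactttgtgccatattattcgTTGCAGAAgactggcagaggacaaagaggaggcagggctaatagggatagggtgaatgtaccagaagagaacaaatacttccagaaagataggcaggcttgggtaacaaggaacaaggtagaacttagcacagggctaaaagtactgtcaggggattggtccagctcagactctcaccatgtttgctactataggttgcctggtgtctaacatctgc
The Cyp2a5 and Cyp2a4 windows were 98.3% identical over aligned bases and both hold TTGCATAA, 71 and 70 bases before the start. The Cyp2c67 and Cyp2c68 windows were 91.6% identical, and TTGCACAA is found in that of Cyp2c67 alone. The Cyp2j8 window holds TTGCAGAA, 167 bases before the start, and the Cyp2j5 window holds no match. Cyp2j5 and Cyp2j8 shared 56.8% of aligned bases, within the range of 49.1% to 61.9% between windows of different subfamilies printed here. The TTGCNNAA core was present in 15 of 53 windows of 50 P450 genes (28.3%) and in 10.8% of all 32851 windows. A TATA box, TATAAA on either strand, was present in 26 of the 53 (49.1%) against 13.6% of all windows. Further motifs were scanned. The hormone receptor core element was in 18.9% of the 53 windows (6.85% of all windows) and the CAAT box in 43.4% (37.4%). The STAT element was in 3.77% (8.3%) and the dioxin response element core in 18.9% (32.4%), both below the share of all windows. The full glucocorticoid and mineralocorticoid receptor element was in 1 of 53, that of Cyp2j8, against 0.475% of all windows. That match is not capitalised above. Windows of close copies are not independent, and a match describes letters, not binding.

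The comparison of HMRKO + MI with HMRKO + sham asks what infarction does in livers that lack hepatocyte MR, and of the 1 day comparisons it held the most P450 changes. Of the 42 genes tested, 21 fell and 3 rose, while 21.7% of all genes tested fell and 22% rose. Of these, 17 fell and 2 rose with a log2 fold change over 1 in size, against 11.4% and 9.06% of all genes. The median log2 fold change was -0.80 over the 42 P450 genes and 0.0055 over all 14266 genes. In 23 of 42 every HMRKO + MI liver was below every HMRKO + sham liver, and in 4 every one was above, while the shares of all genes were 27.5% and 28.2%. The largest falls among genes with over 10 CPM were in Cyp2a5, Cyp2c54 and Cyp2c44, and those that rose were Cyp2d9, Cyp3a13 and Cyp2j8.

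In LC livers the same operation moved few P450 genes past the threshold. In LC + MI against LC + sham livers, 3 of 42 fell (Cyp2c44, Cyp2a5 and Cyp2u1) and 1 rose (Cyp2c39), while 2.33% of all genes fell and 2.68% rose. With a log2 fold change over 1 in size 2 fell and 1 rose, beside 1.04% and 1.44% of all genes. The median log2 fold change of the P450 genes was -0.35, against 0.0079 over all genes. Of the 42 values 31 were below 0, beside 6993 of all 14266 genes. In 10 of 42 every LC + MI liver lay below every LC + sham liver and in 1 above, beside 12.1% and 12.6% of all genes. DESeq2 counted 9 lower in place of 3, and without LC + MI replicate 1, the library with the highest mitochondrial share, edgeR counted 6. Without LC + sham replicate 2, LC + sham replicate 3 or LC + MI replicate 2 the count of lower genes was 1, and Cyp2c39 no longer passed without any 1 of 5 livers.

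Comparing HMRKO + MI with LC + MI livers sets the genotypes against each other after infarction. Here 7 of 42 fell (Cyp2c54, Cyp2c68, Cyp2r1, Cyp2u1, Cyp2c67, Cyp2d22 and Cyp2j5) and 3 rose (Cyp2b10, Cyp2j8 and Cyp3a13). Over all genes 16.2% fell and 14.6% rose. With a log2 fold change over 1 in size 2 fell and 2 rose, beside 7.77% and 4.58% of all genes. The median log2 fold change was -0.40 over the 42 P450 genes and -0.0069 over all genes. Every HMRKO + MI liver was below every LC + MI liver for 10 of 42 and above for 6, beside 24.7% and 24.1% of all genes. Leaving out LC + MI replicate 1 or HMRKO + MI replicate 1 gave 2 falls, and leaving out HMRKO + MI replicate 2 gave 4.

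Between sham-operated livers, HMRKO + sham against LC + sham, no P450 gene passed with edgeR or with DESeq2, and 2 of 42 had an unadjusted p under 0.05. Of all genes 0.021% rose and 0.014% fell. The median log2 fold change of the 42 genes was 0.11. Every HMRKO + sham liver lay above every LC + sham liver for 5 of 42 genes and below for 0, beside 5.36% and 5.78% of all genes.

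**Figure D1:**
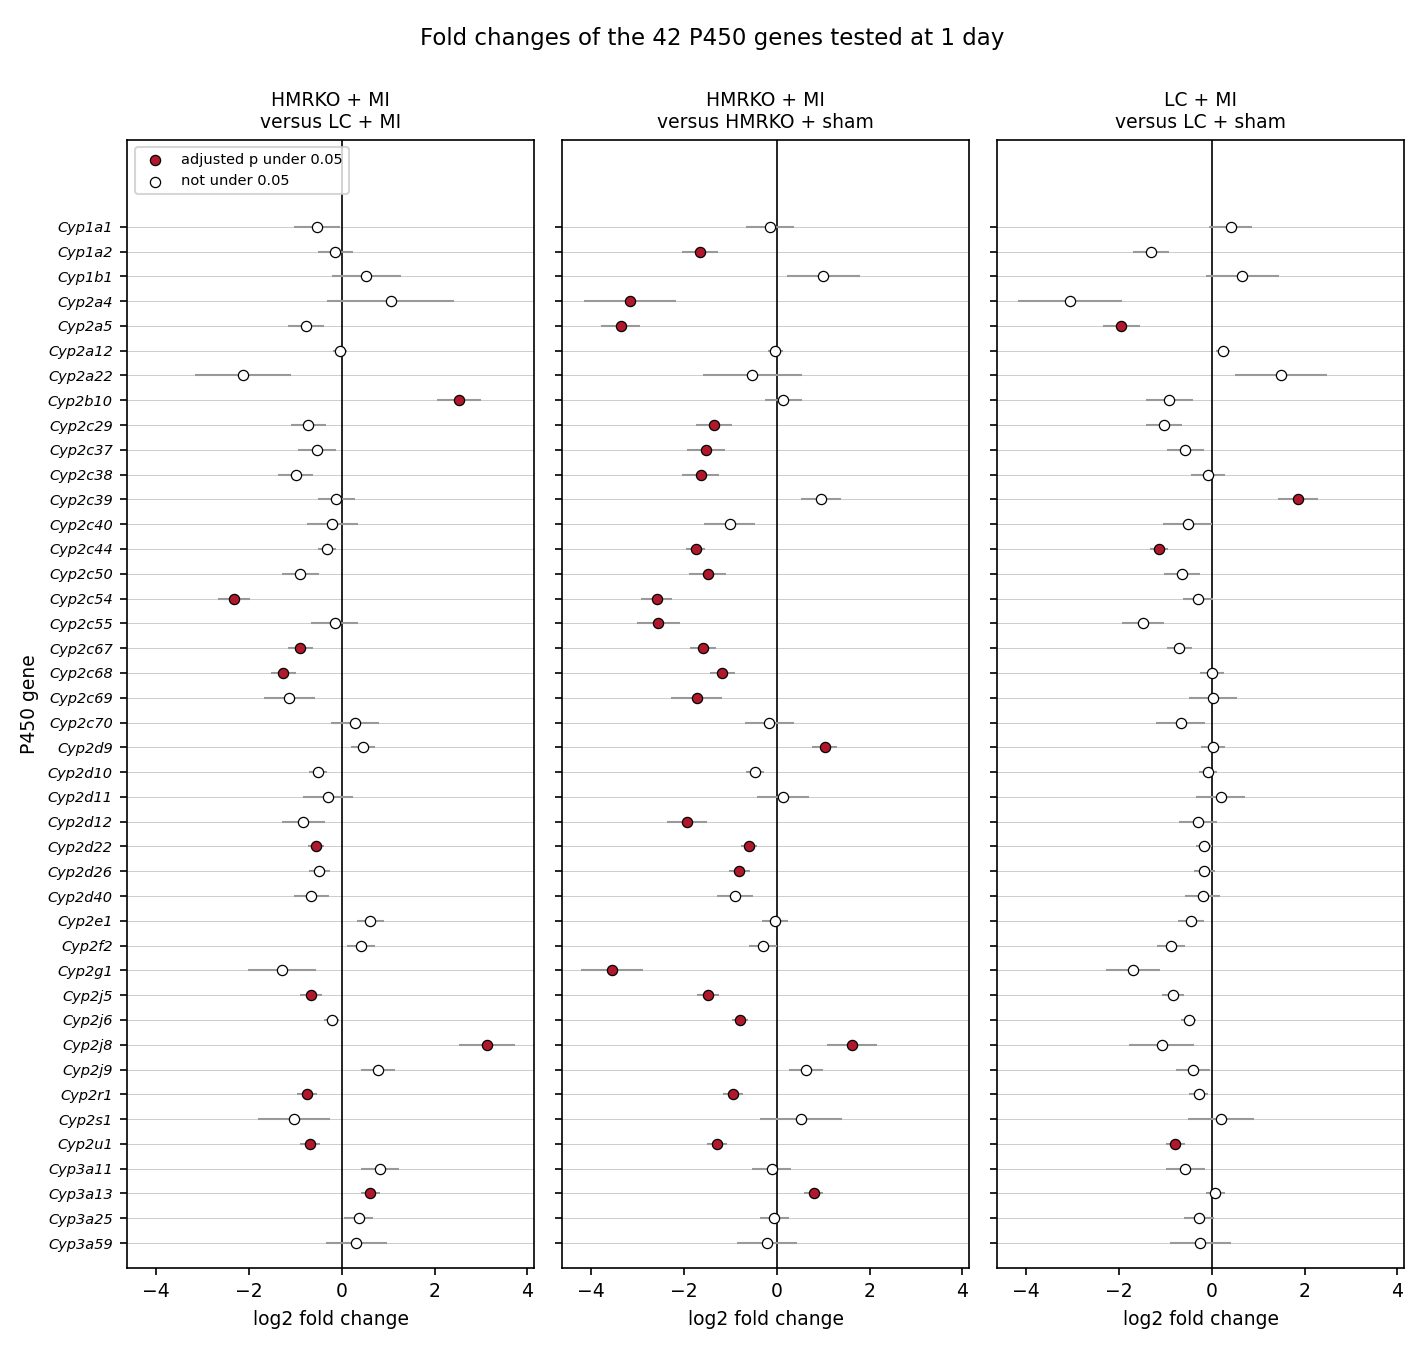
Log2 fold changes (horizontal axis) of the 42 P450 genes tested at 1 day (vertical axis) in 3 comparisons. Points are edgeR estimates, grey lines reach 1 SE to either side and filled points have an adjusted p under 0.05. Falls outnumber rises in HMRKO + MI against HMRKO + sham livers, 21 to 3.

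The Cyp2c genes were the group with the most members and the most falls. They encode epoxygenases and hydroxylases of arachidonic and linoleic acid as well as drug-oxidising enzymes. Of 13 tested, 10 were lower in HMRKO + MI than in HMRKO + sham livers, all with a log2 fold change below -1, and none was higher. Over all genes 11.4% fell by that much and 22% rose at any fold change. Their summed level was 909 ± 104 CPM in HMRKO + MI and 2144 ± 315 CPM in HMRKO + sham livers, and 1373 ± 183 CPM in LC + MI and 2133 ± 958 CPM in LC + sham livers (mean ± SD, n = 3 each). The groups of HMRKO livers did not overlap in that sum, while the LC + sham livers spread from 1404 to 3218 CPM around the LC + MI values.

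Cyp2c54, a fatty acid epoxygenase, had the smallest p of the 42 between the genotypes after MI. It had 20.6, 28.2 and 36.7 CPM in HMRKO + MI livers and 125, 191 and 199 CPM in HMRKO + sham livers, and 178, 89.1 and 160.5 CPM in LC + MI livers against 116, 250.3 and 157 CPM in LC + sham livers. All 3 HMRKO + MI livers were below all 9 other livers, and the 3 other groups overlapped. Cyp2c54 was lower in HMRKO + MI than in LC + MI livers (log2 fold change -2.32, SE 0.34, adjusted p = 0.00107) and lower than in HMRKO + sham livers (log2 fold change -2.59, SE 0.34, adjusted p = 0.000138). In LC livers its difference after MI did not pass (log2 fold change -0.29, SE 0.32, adjusted p = 0.646). It was the only 1 of the 42 whose response to MI differed between the genotypes in edgeR's interaction test (difference of log2 fold changes -2.30, SE 0.46, adjusted p = 0.0109), beside 8.5% of all genes with a lower and 6.74% with a higher response in HMRKO livers. That call held in each of the 19 alternatives run, with adjusted p values of 3.65e-05 to 0.0284. Cyp2c50, its closest copy, had 87.3, 108 and 183 CPM in HMRKO + MI livers and 301, 326 and 432 CPM in HMRKO + sham livers, and 232, 198 and 272 CPM in LC + MI livers against 163, 616 and 314 CPM in LC + sham livers. It fell in HMRKO + MI against HMRKO + sham livers (log2 fold change -1.49, SE 0.40, adjusted p = 0.00901) and had a log2 fold change of -0.89 against LC + MI livers, which did not pass (adjusted p = 0.0983).

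Cyp2c44, an arachidonic acid epoxygenase, fell after MI in both genotypes. It had 121, 76 and 116 CPM in HMRKO + MI livers and 341, 352 and 357 CPM in HMRKO + sham livers, and 155, 116 and 119 CPM in LC + MI livers against 328, 299 and 235 CPM in LC + sham livers. In each genotype the MI livers were below all sham livers. It fell in HMRKO + MI against HMRKO + sham livers (log2 fold change -1.75, SE 0.20, adjusted p = 6.11e-05) and in LC + MI against LC + sham livers (log2 fold change -1.14, SE 0.20, adjusted p = 0.00875). HMRKO + MI and LC + MI livers overlapped (adjusted p = 0.227).

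Cyp2c67 and Cyp2c68 lie close together on chromosome 19 and have the like promoter windows shown above. Cyp2c67 had 54.9, 63 and 61.4 CPM in HMRKO + MI livers and 209.9, 217 and 114 CPM in HMRKO + sham livers, and 132, 93.3 and 108 CPM in LC + MI livers against 153, 257 and 133 CPM in LC + sham livers. Every HMRKO + MI liver was below every liver of the other groups. It fell against LC + MI livers (log2 fold change -0.90, SE 0.27, adjusted p = 0.0258) and against HMRKO + sham livers (log2 fold change -1.59, SE 0.28, adjusted p = 0.000744). The fall against LC + MI livers did not pass without LC + MI replicate 1, or without any 1 of the HMRKO + MI livers (adjusted p of up to 0.0942). Cyp2c68 had 53.6, 67.3 and 100.3 CPM in HMRKO + MI livers and 163, 201 and 137 CPM in HMRKO + sham livers, and 212, 126 and 193 CPM in LC + MI livers against 164, 227 and 139 CPM in LC + sham livers. Its HMRKO + MI livers were again below all others, while LC + MI and LC + sham livers overlapped. It fell against LC + MI livers (log2 fold change -1.26, SE 0.27, adjusted p = 0.00522) and against HMRKO + sham livers (log2 fold change -1.18, SE 0.27, adjusted p = 0.00384).

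Cyp2c55, which CAR and PXR induce and which hydroxylates arachidonic acid, was expressed at a low level. It had 0.28, 0.475 and 1.01 CPM in HMRKO + MI livers and 4.65, 2.51 and 3.25 CPM in HMRKO + sham livers, and 1, 0.563 and 0.45 CPM in LC + MI livers against 2.48, 1.96 and 1.08 CPM in LC + sham livers. The HMRKO + MI and HMRKO + sham livers did not overlap, nor did the LC + MI and LC + sham livers. It fell in HMRKO + MI against HMRKO + sham livers (log2 fold change -2.55, SE 0.46, adjusted p = 0.00102) and did not pass in LC + MI against LC + sham livers (log2 fold change -1.48, SE 0.46, adjusted p = 0.0806). The other falls in HMRKO + MI against HMRKO + sham livers were in Cyp2c37, Cyp2c38, Cyp2c29 and Cyp2c69, with log2 fold changes of -1.54, -1.64, -1.36 and -1.73. The Cyp2c29 call was lost without HMRKO + sham replicate 1, without HMRKO + MI replicate 1 or without HMRKO + MI replicate 2 (adjusted p of up to 0.0566). The Cyp2c69 call was lost without HMRKO + sham replicate 2, without HMRKO + MI replicate 1 or without HMRKO + MI replicate 2 (adjusted p of up to 0.124). Cyp2c39, known as a retinoic acid hydroxylase, went the other way in LC livers. It had 1.55, 2.21 and 3.15 CPM in LC + MI livers against 0.502, 0.888 and 0.523 CPM in LC + sham livers, without overlap (log2 fold change 1.86, SE 0.44, adjusted p = 0.0311). Cyp2c70, which makes the muricholic acids of mouse bile, had log2 fold changes of -0.16 in HMRKO + MI against HMRKO + sham livers and -0.67 in LC + MI against LC + sham livers and did not pass in either (adjusted p = 0.824 and 0.5).

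**Figure D2:**
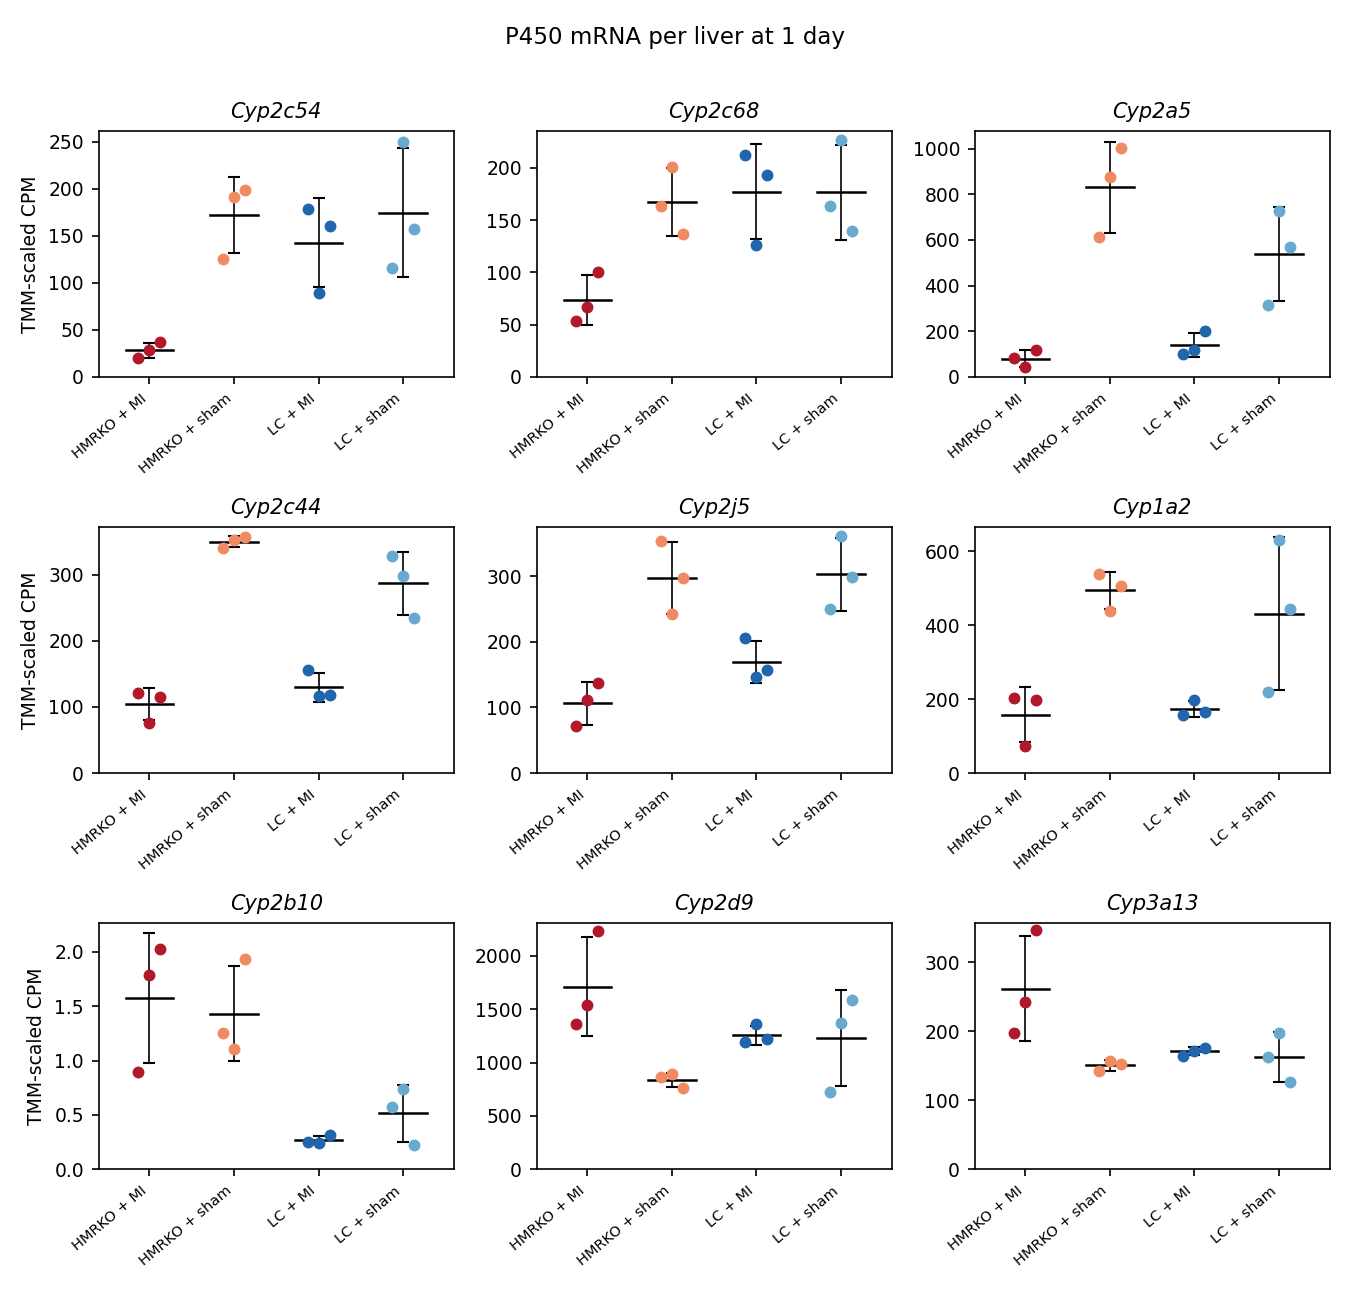
CPM (TMM-scaled, linear vertical axes starting at 0) of 9 P450 genes in the 12 livers at 1 day, by group. Points are livers, horizontal lines group means and bars 1 SD (n = 3). Cyp2c54 lies between 20.6 and 36.7 CPM in HMRKO + MI livers, below every other liver, while Cyp2a5 and Cyp2c44 are low in both MI groups.

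Of the Cyp2a genes, Cyp2a5 is coumarin 7-hydroxylase, the mouse enzyme that also oxidises nicotine, and Cyp2a4 is its female-predominant near copy with steroid 15-alpha-hydroxylase activity. Cyp2a5 had 82.8, 42 and 118 CPM in HMRKO + MI livers and 612, 877 and 1001 CPM in HMRKO + sham livers, and 101, 116 and 200.3 CPM in LC + MI livers against 317, 725 and 569 CPM in LC + sham livers. Neither genotype's MI livers overlapped with its sham livers, whereas HMRKO + MI and LC + MI livers overlapped with each other. It fell in HMRKO + MI against HMRKO + sham livers (log2 fold change -3.36, SE 0.42, adjusted p = 0.000102) and in LC + MI against LC + sham livers (log2 fold change -1.95, SE 0.40, adjusted p = 0.019). The LC fall did not pass without LC + sham replicate 2, LC + sham replicate 3 or LC + MI replicate 2. Its response to MI did not pass the interaction test (difference of log2 fold changes -1.41, adjusted p = 0.0926).

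Cyp2a4 was nearly silent, with 7, 4 and 2 reads in HMRKO + MI livers against 30, 55 and 40 reads in HMRKO + sham livers. It fell there (log2 fold change -3.17, SE 0.99, adjusted p = 0.0201), though not without HMRKO + sham replicate 2, without HMRKO + MI replicate 2 or without HMRKO + MI replicate 3 (adjusted p of up to 0.0763). In LC + MI against LC + sham livers its log2 fold change was close to that, at -3.06, but did not pass. The difference between these responses was -0.11 and did not pass either. The ratio of summed reads was 0.098 (95% exact interval 0.0508 to 0.174, counting error only). By its HMRKO + MI livers alone Cyp2a4 would not have passed the filter on low counts. Its fall is therefore not independent of that filter. Reads of Cyp2a5 placed on Cyp2a4 cannot be told apart from its own. Cyp2a12, a steroid 7-alpha-hydroxylase, had 778, 683 and 684 CPM in HMRKO + MI livers and 719, 700.2 and 770.2 CPM in HMRKO + sham livers, and 806, 686 and 712 CPM in LC + MI livers against 515, 691 and 667 CPM in LC + sham livers. The groups overlapped, except that the HMRKO + sham livers lay above the LC + sham livers, and no comparison passed (log2 fold change -0.03 in HMRKO + MI against HMRKO + sham livers). Cyp2g1, known from the olfactory mucosa and neighbour of the Cyp2a genes, had 0.559, 0.183 and 0.0507 CPM in HMRKO + MI livers against 2.35, 2.99 and 3.73 CPM in HMRKO + sham livers. The groups did not overlap (log2 fold change -3.56, SE 0.67, adjusted p = 0.0012), with 10, 5 and 1 reads in HMRKO + MI livers. Those livers alone would not have carried Cyp2g1 past the filter on low counts either, so the same limit holds for its fall.

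Among Cyp2j genes, of which 4 were tested, Cyp2j5 and Cyp2j8 moved apart. Cyp2j5, an arachidonic acid epoxygenase of liver and kidney, had 71.1, 111 and 137 CPM in HMRKO + MI livers and 353, 243 and 298 CPM in HMRKO + sham livers, and 205, 146 and 156 CPM in LC + MI livers against 250.4, 361 and 298 CPM in LC + sham livers. Every HMRKO + MI liver was below every LC + MI liver, and in each genotype the MI livers were below the sham livers. It fell against HMRKO + sham livers (log2 fold change -1.49, SE 0.24, adjusted p = 0.000544) and, close to the threshold, against LC + MI livers (log2 fold change -0.67, SE 0.24, adjusted p = 0.0494), a call that was lost in 14 of 20 alternatives. Cyp2j6 had 37.8, 37.8 and 49.2 CPM in HMRKO + MI livers against 75, 80.1 and 61.1 CPM in HMRKO + sham livers, without overlap (log2 fold change -0.79, SE 0.17, adjusted p = 0.00245). Cyp2j8 was close to the detection limit, with 26, 14 and 14 reads in HMRKO + MI livers against 2, 3 and 2 reads in LC + MI livers. The groups did not overlap and it rose (log2 fold change 3.13, SE 0.61, adjusted p = 0.00351). By summed reads the ratio was 8.37 (95% exact interval 3.79 to 21.8, counting error only). It also rose against HMRKO + sham livers, which held 9, 6 and 4 reads (log2 fold change 1.62, SE 0.53, adjusted p = 0.0253). The second call was lost without HMRKO + sham replicate 2, without HMRKO + sham replicate 3 or without HMRKO + MI replicate 1 (adjusted p of up to 0.137). Cyp2j8 had enough reads to be tested only through the HMRKO + MI livers, where it was high. Neither rise is therefore independent of the filter on low counts. Summed over the Cyp2j genes the level was 174 ± 34 CPM in HMRKO + MI and 386 ± 53.5 CPM in HMRKO + sham livers, and 232 ± 40.6 CPM in LC + MI and 391 ± 53.6 CPM in LC + sham livers.

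The single genes Cyp2u1 and Cyp2r1 act on endogenous lipids. Cyp2u1, known in humans as a long-chain fatty acid hydroxylase, had 15.6, 17.2 and 12.4 CPM in HMRKO + MI livers and 40.1, 31.8 and 38.7 CPM in HMRKO + sham livers, and 30.9, 24.6 and 17.7 CPM in LC + MI livers against 50.3, 37.5 and 37.8 CPM in LC + sham livers. In each genotype the MI livers were below the sham livers. It fell in HMRKO + MI against HMRKO + sham livers (log2 fold change -1.29, SE 0.21, adjusted p = 0.00047), in LC + MI against LC + sham livers (log2 fold change -0.78, SE 0.20, adjusted p = 0.0436) and in HMRKO + MI against LC + MI livers (log2 fold change -0.69, SE 0.21, adjusted p = 0.0244). It was the only 1 of the 42 to pass in all 3 comparisons, and the last 2 calls were lost in 10 and 4 of 20 alternatives. Cyp2r1, the vitamin D 25-hydroxylase, had 2.46, 4.31 and 4.31 CPM in HMRKO + MI livers and 8.13, 6.74 and 6.54 CPM in HMRKO + sham livers, and 6.56, 5.95 and 6.19 CPM in LC + MI livers against 6.25, 8.18 and 8.37 CPM in LC + sham livers. All 3 HMRKO + MI livers were below the other 9. It fell against HMRKO + sham livers (log2 fold change -0.94, SE 0.21, adjusted p = 0.00378) and against LC + MI livers (log2 fold change -0.74, SE 0.21, adjusted p = 0.0207). The call against LC + MI livers was lost without LC + MI replicate 1 or without HMRKO + MI replicate 1 (adjusted p of up to 0.062).

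The Cyp2d genes include some of the most abundant liver P450 transcripts and were divided in direction. Cyp2d9, the testosterone 16-alpha-hydroxylase of male mouse liver, had 1365, 1540.3 and 2235 CPM in HMRKO + MI livers and 864, 892 and 766 CPM in HMRKO + sham livers, and 1189, 1359 and 1222 CPM in LC + MI livers against 726, 1375 and 1589.6 CPM in LC + sham livers. Every HMRKO + MI liver was above every HMRKO + sham liver, and it rose (log2 fold change 1.03, SE 0.26, adjusted p = 0.00721). LC + MI and LC + sham livers overlapped (log2 fold change 0.03, SE 0.26, adjusted p = 0.964). Cyp2d12, at a low level, had 0.391, 0.256 and 0.254 CPM in HMRKO + MI livers against 1.09, 1.49 and 0.878 CPM in HMRKO + sham livers, without overlap (log2 fold change -1.94, SE 0.43, adjusted p = 0.00329). Cyp2d22, regarded as the nearest mouse relative of human CYP2D6, had 139.8, 121 and 152 CPM in HMRKO + MI livers and 207, 212 and 209 CPM in HMRKO + sham livers, and 259, 168 and 181 CPM in LC + MI livers against 199, 222 and 261 CPM in LC + sham livers. It fell in HMRKO + MI against HMRKO + sham livers (log2 fold change -0.60, SE 0.18, adjusted p = 0.0149) and against LC + MI livers (log2 fold change -0.56, SE 0.18, adjusted p = 0.032), in both without overlap. The fall against HMRKO + sham livers did not pass without HMRKO + MI replicate 2 (adjusted p = 0.0673). That against LC + MI livers did not pass without HMRKO + MI replicate 1, without HMRKO + MI replicate 2 or without LC + MI replicate 1, or in a fit of only the groups compared or with length and GC trends removed (adjusted p of up to 0.14). Cyp2d26 had 423, 595 and 698 CPM in HMRKO + MI livers and 938, 1032 and 1031 CPM in HMRKO + sham livers, and 998, 684 and 717 CPM in LC + MI livers against 664, 1069 and 955 CPM in LC + sham livers. It fell against HMRKO + sham livers (log2 fold change -0.81, SE 0.23, adjusted p = 0.0126), but not without HMRKO + MI replicate 1 (adjusted p = 0.0539). Cyp2d10 had 594, 648 and 677 CPM in HMRKO + MI livers against 878, 877 and 899.6 CPM in HMRKO + sham livers, which did not overlap but did not pass (log2 fold change -0.47, SE 0.19, adjusted p = 0.0635). The summed Cyp2d level was 3109.6 ± 638 CPM in HMRKO + MI and 3023 ± 65.5 CPM in HMRKO + sham livers, which overlapped.

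**Figure D3:**
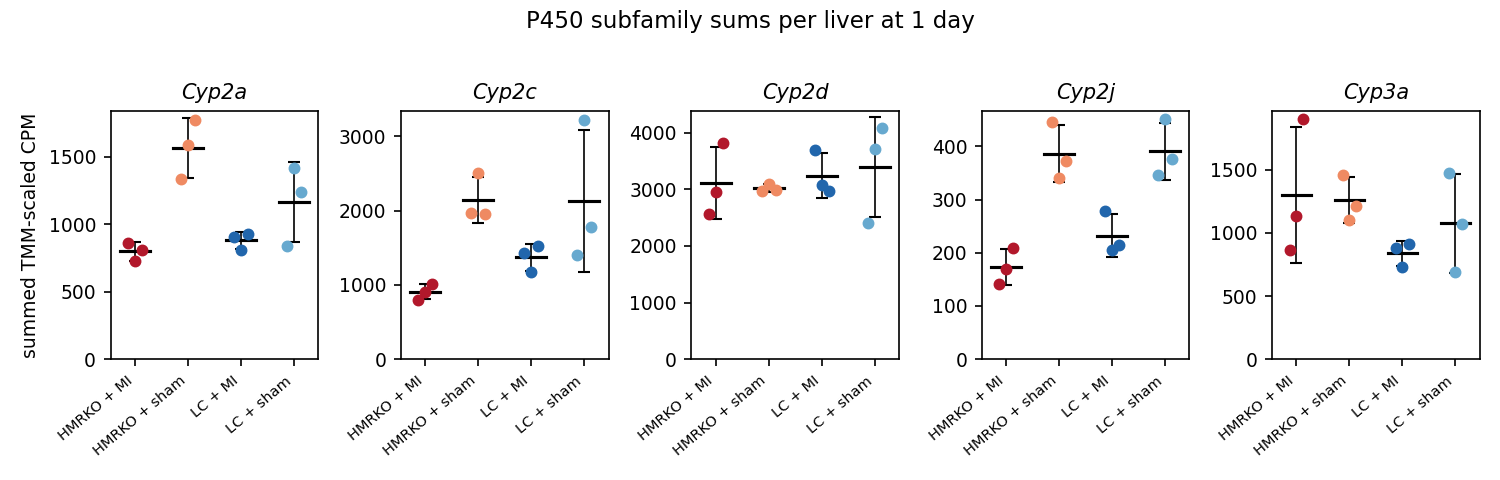
Summed CPM (TMM-scaled, vertical axis from 0) of 5 P450 subfamilies in each liver at 1 day, by group. Points are livers, horizontal lines means and bars 1 SD (n = 3). The Cyp2c sum is 804 to 1012 CPM in HMRKO + MI livers and 1959.6 to 2508 CPM in HMRKO + sham livers, while the Cyp2d and Cyp3a sums of these groups overlap.

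The classical probe genes of inducing receptors went different ways. Cyp1a2, which oxidises caffeine and is a target of Ahr, had 204, 72.4 and 196 CPM in HMRKO + MI livers and 537, 438 and 505 CPM in HMRKO + sham livers, and 158, 199 and 165 CPM in LC + MI livers against 219, 631 and 444 CPM in LC + sham livers. The 3 HMRKO + MI livers were below the 3 HMRKO + sham livers and it fell (log2 fold change -1.65, SE 0.38, adjusted p = 0.0043). In LC + MI against LC + sham livers the groups did not overlap either, but LC + sham livers varied widely and the difference did not pass (log2 fold change -1.31, SE 0.38, adjusted p = 0.0683). Cyp1a1, the inducible Ahr target that is scarce in untreated liver, was at 0.2 to 0.724 CPM over the 12 livers and passed nowhere (log2 fold changes of -0.54 to 0.40 over the 3 comparisons of MI livers). Of 5 listed Ahr targets tested, 1 rose (Tiparp, outside the P450 genes) and 1 fell (Cyp1a2) in HMRKO + MI against HMRKO + sham livers. Over all genes 22% rose and 21.7% fell. Tiparp rose in HMRKO + MI livers against HMRKO + sham livers (log2 fold change 1.93, SE 0.31, adjusted p = 0.000434) and against LC + MI livers (log2 fold change 1.67, SE 0.30, adjusted p = 0.00251). Against LC + MI livers it alone of the 5 passed, and Cyp1a2 had a log2 fold change of -0.14 (adjusted p = 0.795).

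Cyp2b10, the standard target of CAR, was scarce, with 0.895, 1.79 and 2.03 CPM in HMRKO + MI livers and 1.26, 1.11 and 1.93 CPM in HMRKO + sham livers, and 0.25, 0.241 and 0.311 CPM in LC + MI livers against 0.574, 0.74 and 0.224 CPM in LC + sham livers. Every HMRKO + MI liver was above every LC + MI liver, and it rose there (log2 fold change 2.53, SE 0.47, adjusted p = 0.00285), with 16, 49 and 40 reads in HMRKO + MI against 5, 6 and 9 reads in LC + MI livers. The HMRKO + sham livers also lay above the LC + sham livers, but this did not pass (log2 fold change 1.47, SE 0.43, adjusted p = 0.495), nor did the interaction (adjusted p = 0.269). Cyp2b10 had enough reads to be tested only through the HMRKO livers, where it was higher. Its rise is therefore not independent of the filter on low counts. Cyp2e1, the ethanol- and acetaminophen-oxidising enzyme, had 3256, 4055 and 5287 CPM in HMRKO + MI livers and 4645, 3693 and 4681 CPM in HMRKO + sham livers, and 2455, 2914 and 2861 CPM in LC + MI livers against 2233, 5489 and 3541 CPM in LC + sham livers. The HMRKO + MI and the HMRKO + sham livers all lay above the LC + MI livers, the other pairs of groups overlapped, and no comparison passed (log2 fold change 0.61, SE 0.28, adjusted p = 0.115 for HMRKO + MI against LC + MI livers). Cyp2f2, a naphthalene-oxidising enzyme that in liver marks the periportal zone, had 223, 391 and 550.1 CPM in HMRKO + MI livers and 548, 405 and 481 CPM in HMRKO + sham livers, and 265, 314 and 299 CPM in LC + MI livers against 339, 696 and 573 CPM in LC + sham livers. The LC + MI livers lay below the LC + sham livers, and it did not pass in any comparison (log2 fold change -0.87, SE 0.30, adjusted p = 0.116 in LC + MI against LC + sham livers).

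Of the 4 Cyp3a genes tested, Cyp3a13 alone passed. It had 197, 242 and 346 CPM in HMRKO + MI livers and 142, 158 and 153 CPM in HMRKO + sham livers, and 165, 172 and 176 CPM in LC + MI livers against 163, 198 and 127 CPM in LC + sham livers. All HMRKO + MI livers were above the HMRKO + sham livers and above the LC + MI livers. It rose against HMRKO + sham livers (log2 fold change 0.79, SE 0.20, adjusted p = 0.00755) and against LC + MI livers (log2 fold change 0.62, SE 0.20, adjusted p = 0.0375), and the second call was lost in 9 of 20 alternatives. Cyp3a11, the main PXR target of mouse liver, had 458, 443 and 1078 CPM in HMRKO + MI livers and 915, 578 and 646 CPM in HMRKO + sham livers, and 330.0, 299 and 489 CPM in LC + MI livers against 762, 242 and 658 CPM in LC + sham livers. Its livers spread widely within groups and it passed in no comparison (log2 fold change 0.82, SE 0.42, adjusted p = 0.15 for HMRKO + MI against LC + MI livers).

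The MI comparisons of the genotypes share no livers, and their values can be set side by side. Of the 42 genes, 28 were below 0 in both and 6 above 0 in both. The share of all genes below or above 0 in both was not counted. In 29 of the 42 the value was lower in HMRKO than in LC livers, whatever its sign, beside 7116 of all 14266 genes. Cyp2c44, Cyp2a5 and Cyp2u1 were the 3 that fell in both. Only the interaction test compares the responses gene by gene, and it passed for 1 of 42. Spread between livers of 1 group was also measured. Among P450 genes with a mean of at least 10 CPM, the median coefficient of variation was 29.2% in HMRKO + MI, 15% in HMRKO + sham, 21.7% in LC + MI and 37.6% in LC + sham livers, beside 11.1%, 11.9%, 12.7% and 12.7% over all genes at that level.

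The 16 P450 genes that could not be tested at 1 day had too few reads. They were Cyp2b9, Cyp2b13, Cyp2b19, Cyp2b23, Cyp2c65, Cyp2c66, Cyp2d34, Cyp2j7, Cyp2j11, Cyp2j12, Cyp2j13, Cyp2t4, Cyp2w1, Cyp3a16, Cyp3a44 and Cyp3a57, and 8 of them had 0 reads in every liver. Cyp2b9 reached 34 reads in 1 liver, and none of the others had more than 5. A count of 0 allows up to 3 reads, or 0.104 to 0.157 CPM in a liver at these depths, counting error only. Cyp2b9, Cyp2b13, Cyp3a16 and Cyp3a44 are predominant in female liver. Tested genes not named above passed in none of the 1 day comparisons. Over the female-predominant genes on a list written with earlier results known, 2 of 3 tested (Cyp2a4 and Cyp2c69) fell in HMRKO + MI against HMRKO + sham livers, where 21.7% of all genes fell, and 0 of 3 passed in LC + MI against LC + sham livers. Of 6 pericentral genes (Cyp1a2, Cyp2a5, Cyp2c29, Cyp2c37, Cyp2c50 and Cyp2e1), 5 fell in HMRKO + MI against HMRKO + sham livers, all but Cyp2e1, beside the same 21.7% of all genes. Their median log2 fold change was -1.51. In LC + MI against LC + sham livers 1 of the 6 fell (Cyp2a5), beside 2.33% of all genes, and in HMRKO + MI against LC + MI livers 0 of 6 passed with edgeR and 2 had an unadjusted p under 0.05. The pericentral list was written with earlier results known as well.

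The partners that P450 enzymes need were counted from lists. In HMRKO + MI against HMRKO + sham livers 21.7% of all genes fell and 22% rose. Of 9 redox partner genes, 5 fell and 0 rose in HMRKO + MI against HMRKO + sham livers, among them Fdxr (ferredoxin reductase of the mitochondrial P450 chain, log2 fold change -1.99, SE 0.23, adjusted p = 6.11e-05) and Cyb5b (outer mitochondrial cytochrome b5, log2 fold change -1.40, SE 0.19, adjusted p = 0.000152). Por, the electron donor of the enzymes described here, had 316, 266 and 384 CPM in HMRKO + MI livers and 356, 426 and 519.7 CPM in HMRKO + sham livers, and 157, 179.7 and 225 CPM in LC + MI livers against 297, 399.8 and 345 CPM in LC + sham livers. It fell in LC + MI against LC + sham livers (log2 fold change -0.89, SE 0.20, adjusted p = 0.0277). This call was lost without LC + sham replicate 2, without LC + sham replicate 3 or without LC + MI replicate 2, or in a fit of only the groups compared (adjusted p of up to 0.1). It was higher in HMRKO + MI than in LC + MI livers (log2 fold change 0.78, SE 0.20, adjusted p = 0.0127), though not without LC + MI replicate 1 or without HMRKO + MI replicate 3 (adjusted p of up to 0.0518). It did not pass in HMRKO + MI against HMRKO + sham livers (log2 fold change -0.43, SE 0.20, adjusted p = 0.0994).

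Haem supply showed both directions. Of 13 genes of haem synthesis and breakdown, 6 fell and 3 rose in HMRKO + MI against HMRKO + sham livers. Over all genes 21.7% fell and 22% rose. Alad, an early enzyme of the pathway, fell (log2 fold change -1.64, SE 0.16, adjusted p = 2.86e-05) and Cpox, a later one, rose (log2 fold change 1.80, SE 0.22, adjusted p = 9.35e-05). Alas1, the rate-limiting enzyme of hepatic haem synthesis, did not pass there (log2 fold change -0.22, SE 0.35, adjusted p = 0.638) or in LC + MI against LC + sham livers (log2 fold change -0.95, SE 0.35, adjusted p = 0.138). Hmox1, which breaks haem down, had 42.7, 20.9 and 35.5 CPM in HMRKO + MI livers and 9.01, 9.68 and 12.3 CPM in HMRKO + sham livers, and 4.61, 9.45 and 15 CPM in LC + MI livers against 13, 14 and 9.67 CPM in LC + sham livers. It was higher in HMRKO + MI than in HMRKO + sham livers (log2 fold change 1.67, SE 0.35, adjusted p = 0.00237) and than in LC + MI livers (log2 fold change 1.75, SE 0.35, adjusted p = 0.00392).

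Of 19 regulators tested (xenobiotic receptors and their partners), 4 fell and 2 rose in HMRKO + MI against HMRKO + sham livers, and 1 fell and 2 rose in LC + MI against LC + sham livers. Over all genes 21.7% fell and 22% rose in the first comparison, and 2.33% fell and 2.68% rose in the second. CAR (Nr1i3) had 291, 299 and 307 CPM in HMRKO + MI livers and 363, 499 and 591 CPM in HMRKO + sham livers, and 789, 547 and 728 CPM in LC + MI livers against 335, 356 and 423 CPM in LC + sham livers. It was lower in HMRKO + MI than in LC + MI livers (log2 fold change -1.20, SE 0.20, adjusted p = 0.00169) and higher in LC + MI than in LC + sham livers (log2 fold change 0.89, SE 0.20, adjusted p = 0.0251). The LC call was lost without LC + sham replicate 1, without LC + sham replicate 2 or without LC + MI replicate 3, or in a fit of only the groups compared (adjusted p of up to 0.0876). Of 6 listed P450 targets of CAR and PXR, 1 rose and 0 fell in HMRKO + MI against LC + MI livers. Over all genes 14.6% rose and 16.2% fell. The median log2 fold change of the 6 was -0.34. The gene that rose was Cyp2b10, whose rise is not independent of the filter on low counts. PXR (Nr1i2) and Ahr passed in none of the comparisons at 1 day, with log2 fold changes of -0.39 and 0.18 in HMRKO + MI against HMRKO + sham livers. Cebpa, a C/EBP factor, fell there (log2 fold change -1.50, SE 0.23, adjusted p = 0.000385). In that comparison Nfe2l2 also fell (log2 fold change -1.22, SE 0.15, adjusted p = 8.15e-05). Ppara rose (log2 fold change 0.93, SE 0.25, adjusted p = 0.00901). Of 26 tested genes of P450 families above 3, 9 fell and 8 rose in HMRKO + MI against HMRKO + sham livers, with a median log2 fold change of -0.027. These counts stand beside the same 21.7% and 22% of all genes. The steroid 17-alpha-hydroxylase Cyp17a1 rose (log2 fold change 2.98, SE 0.33, adjusted p = 5.28e-05) and the leukotriene hydroxylase Cyp4f14 fell (log2 fold change -1.86, SE 0.21, adjusted p = 5.72e-05).

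Other genes moved beside the P450 changes. For the counts below, 22% of all genes rose and 21.7% fell in HMRKO + MI against HMRKO + sham livers. In LC + MI against LC + sham livers 2.68% of all genes rose and 2.33% fell. Of 23 acute phase genes, 12 rose and 2 fell in HMRKO + MI against HMRKO + sham livers, and their summed level was 155407 to 186626 CPM in HMRKO + MI, 50679 to 65164 CPM in HMRKO + sham, 98559 to 103222 CPM in LC + MI and 62109 to 69765 CPM in LC + sham livers. Summed neutrophil markers (10 genes, 1 of them, Mpo, at 0 in HMRKO + MI livers) were at 29.7 to 32.6 CPM in HMRKO + MI, 9.72 to 15.1 CPM in HMRKO + sham, 11.9 to 21.9 CPM in LC + MI and 5.01 to 14.1 CPM in LC + sham livers. Summed Kupffer cell and macrophage markers (11 genes) were at 107 to 199 CPM in HMRKO + MI, 154 to 229 CPM in HMRKO + sham, 158 to 176 CPM in LC + MI and 245 to 321 CPM in LC + sham livers. Of 10 hepatocyte markers 2 were higher and 0 lower in HMRKO + MI against HMRKO + sham livers, and 0 were higher and 2 lower in LC + MI against LC + sham livers. Of 11 Kupffer cell and macrophage markers 1 was higher and 3 lower in HMRKO + MI against HMRKO + sham livers, and 0 were higher and 4 lower in LC + MI against LC + sham livers. Lymphocyte markers (11 genes, 6 tested) were scarce, with sums of 1.13 to 1.90 CPM in HMRKO + MI, 3.76 to 6.32 CPM in HMRKO + sham, 2.17 to 2.98 CPM in LC + MI and 4.15 to 9.98 CPM in LC + sham livers. Of the 6, 3 fell in HMRKO + MI against HMRKO + sham livers and 0 passed in LC + MI against LC + sham livers with edgeR, where 3 had an unadjusted p under 0.05. Of 8 sinusoidal endothelial markers 3 rose in HMRKO + MI against HMRKO + sham livers and 0 in LC + MI against LC + sham livers. Their sums overlapped, at 161 to 260.1 CPM in HMRKO + MI, 131 to 185 CPM in HMRKO + sham, 174 to 197 CPM in LC + MI and 164 to 179.6 CPM in LC + sham livers. The part of these levels in the P450 differences was not tested.

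The 12 hour experiment asks how unmodified livers respond earlier. Because C57 + sham libraries held far fewer reads than C57 + MI libraries and the predicted gene Gm20594 was the top gene in 2 of them, differences between the libraries and the operation cannot be told apart. With C57 + MI libraries thinned to a total of 1893956 counts, 8 genes rose and 5 fell of 32 tested, close to the counts given below. The summed hepatocyte markers were 78945 to 108825 CPM in C57 + MI against 31707 to 33982 CPM in C57 + sham livers, and summed stellate cell markers (7 genes) 122 to 175 CPM in C57 + MI against 265 to 442 CPM in C57 + sham livers. Neutrophil sums were 44.7 to 86.8 CPM against 137 to 185 CPM, although 4 of 7 tested neutrophil markers rose and 2 fell. Sinusoidal endothelial sums were 191 to 205 CPM against 282 to 435 CPM. Scarce lymphocyte markers summed to 2.18 to 3.66 CPM against 6.33 to 11.1 CPM. Kupffer cell and macrophage, cholangiocyte and erythroid sums overlapped. Of 10 hepatocyte markers 9 rose and 0 fell. Over all genes 34.3% rose and 32% fell. The part of these levels was not tested.

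Levels can be compared between genes only per length, which the deposited TPM values (transcript abundance per length, scaled to a fixed library total) of this experiment allow. In C57 + sham livers the highest mean TPM was that of Cyp2d10 (1151 ± 289), then Cyp2e1 (1091 ± 337), Cyp2d9 (664 ± 192), Cyp2a5 (516 ± 185), Cyp2a12 (501 ± 124) and Cyp2d26 (490.4 ± 193, SD, n = 3 each), and neighbours in that order overlapped. In C57 + MI livers Cyp2e1 led with 4464 ± 822 TPM, ahead of Cyp2d9 (1140.3 ± 174), without overlap. P450 genes summed to 9615 to 11052 TPM in C57 + MI and 5475 to 8089 TPM in C57 + sham livers, and the top gene of each liver made up 35.8% to 50% of that sum in C57 + MI and 18.1% to 19.9% in C57 + sham livers. At 1 TPM or more stood 35 or 36 genes in C57 + MI and 36 to 40 in C57 + sham livers.

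Of the 37 genes tested at 12 hours, 10 rose and 6 fell in C57 + MI against C57 + sham livers, while 34.3% of all genes rose and 32% fell. With a log2 fold change over 1 in size, 6 rose and 4 fell, beside 25.5% and 26.7% of all genes. The median log2 fold change was 0.31 over the P450 genes and 0.11 over all genes, which another scaling (RLE) set at 0.23 and 0.029. When limma was run on log2(TPM + 1), 5 rose and 9 fell, so the split of directions depends on the scale. Every C57 + MI liver was above every C57 + sham liver for 11 of 37 and below for 4, beside 37.8% and 34% of all genes.

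Cyp2e1 had the largest rise among those that passed, with 5487, 7682 and 7645 CPM in C57 + MI livers against 748, 1375 and 1165 CPM in C57 + sham livers, without overlap (log2 fold change 2.66, SE 0.33, adjusted p = 5.34e-05). Cyp3a13 had 264, 259.6 and 322 CPM in C57 + MI livers against 28.9, 53.4 and 53.2 CPM in C57 + sham livers, also without overlap (log2 fold change 2.63, SE 0.27, adjusted p = 1.86e-05). Both passed in all 16 alternatives. Cyp2d9 had 1978, 1588 and 1477 CPM in C57 + MI livers against 589, 481 and 836 CPM in C57 + sham livers and rose (log2 fold change 1.40, SE 0.28, adjusted p = 0.0012), as it did in HMRKO + MI livers at 1 day, although these experiments were fitted apart.

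Of 13 Cyp2c genes, 4 rose and 2 fell, beside 34.3% and 32% of all genes. Cyp2c50 had 282, 369 and 457 CPM in C57 + MI livers against 90.7, 111 and 88.6 CPM in C57 + sham livers (log2 fold change 1.93, SE 0.25, adjusted p = 6.8e-05), and Cyp2c70 had 235, 591 and 552 CPM against 67.8, 116 and 56.3 CPM (log2 fold change 2.52, SE 0.39, adjusted p = 0.000253). Neither overlapped. Cyp2c37 (log2 fold change 0.93, SE 0.23, adjusted p = 0.00514) and Cyp2c29 (log2 fold change 1.89, SE 0.49, adjusted p = 0.00609) rose as well, and neither passed on log2(TPM + 1). Cyp2c37 had 255, 164 and 219.9 CPM in C57 + MI livers against 115, 93.7 and 127 CPM in C57 + sham livers, and Cyp2c29 had 71.2, 260.1 and 373 CPM against 63, 82.2 and 44.8 CPM, where 1 C57 + MI liver lay among the C57 + sham livers. Cyp2c55 had 4.07, 4.07 and 2.45 CPM in C57 + MI livers against 28.3, 6.33 and 25.4 CPM in C57 + sham livers and fell without overlap (log2 fold change -2.48, SE 0.46, adjusted p = 0.00086). Cyp2c54 had 124, 105 and 138 CPM in C57 + MI livers against 178, 178 and 202 CPM in C57 + sham livers and fell, again without overlap (log2 fold change -0.60, SE 0.20, adjusted p = 0.0215), a call lost in 4 of 16 alternatives. Its close copies Cyp2c50 and Cyp2c37 thus rose where it fell.

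Among the remaining subfamilies, Cyp2a12 had 919.7, 817 and 893 CPM in C57 + MI livers against 363, 498 and 586 CPM in C57 + sham livers and rose (log2 fold change 0.86, SE 0.24, adjusted p = 0.00971), but not on log2(TPM + 1). Cyp2d34 had 19.2, 6.42 and 9.19 CPM in C57 + MI livers against 18.9, 31.6 and 34 CPM in C57 + sham livers and fell, with overlapping groups (log2 fold change -1.30, SE 0.39, adjusted p = 0.0122), but not without C57 + sham replicate 2 or without C57 + sham replicate 3 (adjusted p of up to 0.0657). This gene had at most 1 read in any liver at 1 day. Cyp2j5 (0.76) and Cyp2f2 (0.74) rose with small log2 fold changes that did not pass in 7 of 16 alternatives each. Cyp3a59 fell (log2 fold change -1.60), except without C57 + MI replicate 3, without C57 + sham replicate 1 or without C57 + sham replicate 3 (adjusted p of up to 0.141). Cyp2a22 fell (log2 fold change -0.68), except without C57 + sham replicate 2, or with no filter on low counts (adjusted p of up to 0.102). Cyp2s1 is counted among the falls (log2 fold change -1.92) but rests on few reads, 4, 10 and 7 in C57 + MI livers against 5, 3 and 5 in C57 + sham livers. That is 0.281, 0.69 and 0.477 CPM in C57 + MI livers against 2.95, 1.19 and 1.74 CPM in C57 + sham livers, where 3 reads amount to 1.33 to 2.2 CPM. It passed the filter on low counts only through the shallow libraries. Its call was lost without C57 + sham replicate 1 or without C57 + sham replicate 3 (adjusted p of up to 0.08). Cyp2a5, which fell in both genotypes at 1 day, had 407, 352 and 565 CPM in C57 + MI livers against 309, 594 and 628 CPM in C57 + sham livers and did not pass (log2 fold change -0.21, SE 0.31, adjusted p = 0.558). Cyp2d10 and Cyp2d26, among the most abundant, did not pass either (adjusted p = 0.519 and 0.102), although on the TPM scale Cyp2d10 had 781, 492 and 548 in C57 + MI livers against 1091, 896 and 1465 in C57 + sham livers, without overlap. Nor did the probes Cyp1a2 (log2 fold change 0.12, SE 0.24, adjusted p = 0.69) and Cyp3a11 (log2 fold change 1.48, SE 0.72, adjusted p = 0.0902), for which C57 + MI livers ran from 142 to 1109.9 CPM.

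**Figure D4:**
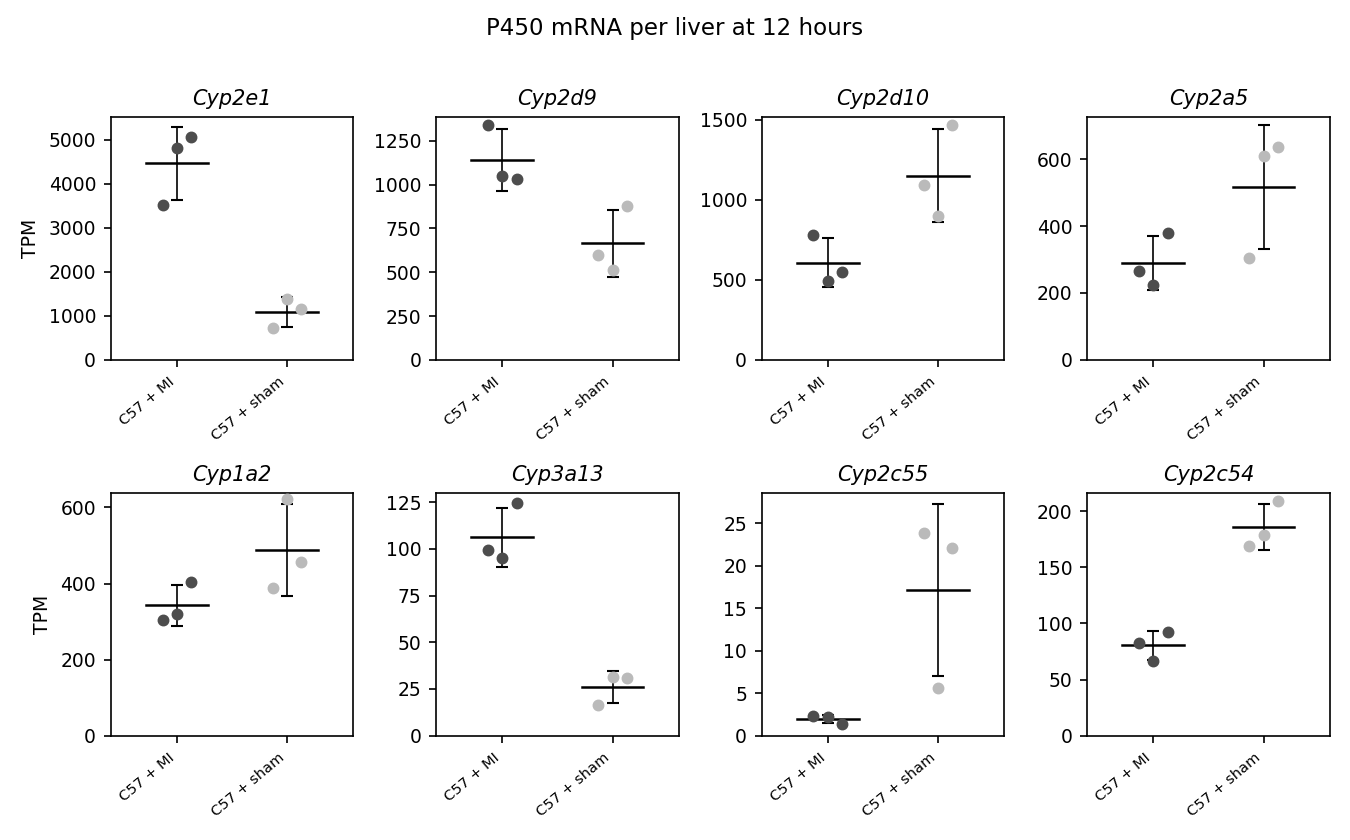
TPM as deposited (linear vertical axes from 0) of 8 P450 genes in 3 C57 + MI and 3 C57 + sham livers at 12 hours. Points are livers, horizontal lines means and bars 1 SD (n = 3). Cyp2e1 is at 3525 to 5057 TPM in C57 + MI livers, above all C57 + sham livers (724 to 1387 TPM), and Cyp2c55 and Cyp2c54 lie below all C57 + sham livers.

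Of the 15 P450 genes not tested at 12 hours, Cyp1a1, Cyp1b1, Cyp2a4, Cyp2b10, Cyp2g1 and Cyp2j8 had been tested at 1 day, and Cyp2b9, Cyp2b13, Cyp2c65, Cyp2j13, Cyp2t4, Cyp2w1, Cyp3a16, Cyp3a44 and Cyp3a57 were tested at neither time. Cyp2b10 had 0.91, 0.12 and 0.46 TPM in C57 + MI livers and is listed at 0 in all C57 + sham livers. Cyp1a1 was at 0.1 to 0.27 TPM in C57 + MI and 0 to 0.26 TPM in C57 + sham livers. Of the lists of partner genes, 4 of 9 redox partners rose and 2 fell, 5 of 13 haem genes rose and 3 fell, and 19 of 23 acute phase genes rose and 0 fell. Over all genes 34.3% rose and 32% fell. Por did not pass (log2 fold change 0.31, SE 0.27, adjusted p = 0.339), Alas1 rose (log2 fold change 0.69, SE 0.24, adjusted p = 0.0245), a call lost in 6 of 16 alternatives, and Hmox1 rose (log2 fold change 2.94, SE 0.46, adjusted p = 0.000249). Ahr rose (log2 fold change 1.49, SE 0.28, adjusted p = 0.000831), CAR (Nr1i3) fell (log2 fold change -1.71, SE 0.37, adjusted p = 0.00208) and PXR (Nr1i2) did not pass (log2 fold change -0.64, SE 0.28, adjusted p = 0.0614). The C/EBP factors listed went different ways. Cebpb rose (log2 fold change 1.62, SE 0.21, adjusted p = 8.42e-05). Cebpa fell (log2 fold change -0.74, adjusted p = 0.0124), a call lost in 2 of 16 alternatives.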

How the data were processed

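RNA of 18 mouse livers was sequenced, 12 at 1 day and 6 at 12 hours. The authors deposited a count of reads for each gene of the 1 day livers, not normalised. For the 12 hour livers the authors deposited estimated counts (not always whole, rounded here), TPM and FPKM values per gene, of which FPKM was not used. In the submitters' processing notes the mm9 build stands beside HISAT2 2.1.0, Bowtie2 2.2.3, DESeq2 and TopHat2. The role of each, the counting program and the use of strand were not given in the sources used here. All columns of values were assigned to a liver from the labels. Columns of the authors' own comparisons were not used.

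Genes were kept by filterByExpr (minimum count 10, minimum total 15), scaled by TMM and fitted with edgeR 4.0.16 (R 4.3.3) quasi-likelihood models, 1 for the 4 groups at 1 day and 1 for the 2 groups at 12 hours, with Benjamini-Hochberg adjustment over 14266 and 12548 genes. The biological coefficient of variation was 0.209 and 0.24. The SE was derived from the fold change and its test statistic. Alternatives were DESeq2 1.42.0, limma 3.58.1 on log2(TPM + 0.1) and log2(TPM + 1), other scalings and filters, a replicate block, leaving out each liver and, added after seeing the data, thinning, removal of length and GC trends and removal of Gm20594. Scripts were tested on simulated data. Promoters came from RefSeq on GRCm38.p6, coding sequences and lengths from GENCODE.

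P450 genes and gene lists were chosen with earlier results of these data known. Values are given in full for up to 10 P450 genes with the smallest p among those that passed in each comparison, the 6 with the highest mean TPM in C57 + sham livers and the probes Cyp1a1, Cyp1a2, Cyp2b10, Cyp2e1, Cyp2f2 and Cyp3a11, and for up to 4 genes of each other list besides Ahr, Nr1i2, Nr1i3, Por, Alas1, Hmox1 and Nr3c2. Further genes, such as Cyp2a4 and Cyp2c70 at 1 day and Cyp2c54 at 12 hours, were named after their values were seen.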

Additional observations from a re-analysis of the deposited data

Results flagged for a closer look

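Cyp2c54 responded to MI differently in the genotypes, by edgeR's test of the difference itself. Its log2 fold change was -2.59 in HMRKO and -0.29 in LC livers, a difference of -2.30 (SE 0.46, adjusted p = 0.0109), and all 3 HMRKO + MI livers were below the other 9. Its coding sequence is 95.2% identical to that of Cyp2c50, so the division of reads between them is uncertain. The same test also passed for 6 genes outside families 1 to 3 that are named above. Over all genes it passed for 8.5% with a lower and 6.74% with a higher response in HMRKO livers. Other listed genes passed as well, such as Uros (difference -1.64), Nfe2l2 (-0.78) and Tiparp (1.59), so these 6 are not the full set. For the haem synthesis gene Alad the difference was -1.52 (adjusted p = 0.00537), with log2 fold changes of -1.64 in HMRKO and -0.11 in LC livers. For the redox partner Fdxr the difference was -1.84 (adjusted p = 0.00752), with log2 fold changes of -1.99 in HMRKO and -0.15 in LC livers. For CAR (Nr1i3) the difference was -1.58 (adjusted p = 0.00787), with log2 fold changes of -0.69 in HMRKO and 0.89 in LC livers. For the family 17 gene Cyp17a1 the difference was 2.19 (adjusted p = 0.0119), with log2 fold changes of 2.98 in HMRKO and 0.79 in LC livers. For the haem-degrading Hmox1 the difference was 1.99 (adjusted p = 0.0215), with log2 fold changes of 1.67 in HMRKO and -0.32 in LC livers. For the haem synthesis gene Cpox the difference was 1.07 (adjusted p = 0.0354), with log2 fold changes of 1.80 in HMRKO and 0.73 in LC livers. The Hmox1 call was lost without LC + sham replicate 2 (adjusted p = 0.053), and the Cpox call in 6 of 19 alternatives, each of them without 1 liver (adjusted p of up to 0.0883).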

How the results depend on the processing

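Of 132 log2 fold changes of single genes, 94 passed. None of these 94 changed direction under any alternative run, and 36 lost the call in at least 1. Of the 38 that did not pass, 13 changed sign in at least 1 alternative. Counted over every alternative, 2310 values kept direction and side of the threshold, 142 lost the call, 19 gained one and 28 changed sign. At 12 hours Cyp1a2 was at -0.18 with length and GC trends removed, -0.098 with thinned C57 + MI libraries and -0.49 with limma on either log2(TPM) scale, and Por at -0.35 and -0.34 on these scales. Cyp1a2 was at 0.020 in HMRKO + MI against LC + MI livers with length and GC trends removed. Without 1 liver at a time, Cyp1a2 ran from -0.37 to 0.21 in HMRKO + MI against LC + MI livers, -0.12 to 0.58 in HMRKO + sham against LC + sham livers, -0.72 to 0.0098 in the interaction and -0.068 to 0.36 at 12 hours. In HMRKO + MI against HMRKO + sham livers Cyp1a1 ran from -0.38 to 0.11, Cyp2b10 from -0.069 to 0.41, Cyp2e1 from -0.25 to 0.11 and Cyp3a11 from -0.66 to 0.11. Between sham livers Cyp1a1 ran from -0.24 to 0.27, Cyp2e1 from -0.057 to 0.59 and Cyp2f2 from -0.41 to 0.068, and in the interaction Cyp3a11 ran from -0.090 to 0.82. In LC + MI against LC + sham livers DESeq2 gave 9 lower P450 genes and the fit with no filter 10, in place of 3. In HMRKO + MI against LC + MI livers the fit with no filter gave 11 lower and a required log2 fold change over 1 in size 2, in place of 7, and between sham livers the fit with no filter gave 1 higher. For the interaction, DESeq2, the replicate block and the removal of length and GC trends each gave 1 higher in place of 0. Lower interactions, 1 in the edgeR fit, numbered 4 with DESeq2, 6 with no filter, 2 with a mean count of at least 10 and 3 with length and GC trends removed. At 12 hours, rises numbered 6 with length and GC trends removed or a required log2 fold change over 1 and 5 with limma on either log2(TPM) scale, in place of 10. The causes were not tested, except that no filter means more genes tested and a required log2 fold change over 1 is stricter.

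Without 1 liver at a time, the counts ran over 0 to 1 higher and 1 to 6 lower in LC + MI against LC + sham livers, 2 to 4 higher and 2 to 9 lower in HMRKO + MI against LC + MI livers, 2 to 4 higher and 17 to 23 lower in HMRKO + MI against HMRKO + sham livers, 0 between sham livers, 0 to 1 higher and 1 to 4 lower for the interaction, and 8 to 12 higher and 4 to 5 lower at 12 hours. Lower interactions numbered 4 without LC + sham replicate 2, 3 without LC + MI replicate 2, HMRKO + sham replicate 1 or HMRKO + MI replicate 3, and 2 without LC + sham replicate 1. Deviations of same-numbered livers from their group means correlated at -0.232 to 0.285 at 1 day and -0.103 to 0.0264 at 12 hours. Differently numbered livers at 1 day ran from -0.292 to 0.212. With 3 livers a group these values cannot show whether the numbers mark a pairing or batch. With a replicate block 4 rose and 21 fell in HMRKO + MI against HMRKO + sham livers, 2 rose and 6 fell in HMRKO + MI against LC + MI livers, and 11 rose and 6 fell at 12 hours. With 3 livers a group, genes with few reads (Cyp2j8, Cyp2b10, Cyp2a4 and Cyp2g1) have wide intervals, and the shallow C57 + sham libraries limit precision at 12 hours.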
